A study of Mus musculus with 38 samples.

Results

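The genes Ets1, Fli1, Erg and Etv6 encode ETS family transcription factors of blood cells, and the data described here are the ChIP-seq peaks around them. A peak was counted when its centre lay from 100 kb before to 100 kb after the mm10 gene body of 1 of the 4 genes, and each peak was counted once. This gave 483 of the 359759 peaks in 17 lists, 0.134% of them. Fli1 and Ets1 lie beside each other on chromosome 9, with 93.4 kb between their gene bodies and 107 kb shared by their windows, so these windows were joined into an Ets1-Fli1 locus of 536 kb. The Erg window on chromosome 16 spanned 427 kb and the Etv6 window on chromosome 6 spanned 434 kb. The window rule used no value of a peak, although the genes were proposed with results of these data known.

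ETS proteins bind DNA through a shared domain that reads a GGAA core, and they commonly act beside RUNX factors on blood cell enhancers. Ets1 is needed for normal lymphoid cells, including T cells. Fli1 and Erg are close relatives that act in stem and progenitor cells, and Erg expression is known to decline as T cells commit. Etv6, also called TEL, acts mainly as a repressor and is needed by adult blood stem cells.

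All cells came from the Cas9-LP line, made from fetal liver progenitors of mice that lack Ebf1, a B-lineage factor, and carry Cas9 at Rosa26, so every group compared shares both alterations and stands for a cultured line, not for thymus. All cultures received SCF, Flt3L and IL-7. LP cells grew on OP9 stroma without Notch ligand, whereas Phase 1 and the later Phase 2 cells grew on OP9-DLL4 stroma, which presents the ligand DLL4. RUNX1, CTCF (an architectural factor), Med12 (a Mediator subunit) and p300 (an acetyltransferase) were profiled in LP and Phase 1 cells, and Notch1-IC, the released Notch1 domain, at all 3 stages. Retroviral guide pools against Ctcf (sgCTCF), Cbfb, the RUNX partner (sgCbfb), or Med12 (sgMed12) were set against a control guide (sgCont). Of 38 samples in 19 groups of 2, the 4 inputs have no list, and each of the other 17 groups is represented by 1 list of peaks reproducible between its replicates. The lists held from 152 to 49116 peaks, and the read depth behind them was not given in the files. Because replicates were already combined, no spread between cultures could be computed and no test was run. Intervals below are 95% Wilson intervals, which cover counting error only. A peak score is the normalized score of a peak in its own list. Since its scale was not stated, scores of different lists are set side by side as listed, with no claim about which is larger, and only ranks within a list are compared. ChIP from cells with guides against Cbfb, Ctcf or Med12 used few cells, and the study describes it as noisier. Positions are given in kb from the first start of a protein-coding transcript, with + for downstream and the word upstream for before it.

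The sequences below are the central 200 bp of RUNX1 peaks of Phase 1 cells to which the results return. They were read from the plus strand of GRCm38 (mm10) and lie outside annotated exons. The Ets1 and the first Etv6 peak are shown because a Phase 2 Notch1-IC peak lay on them. The Fli1 peak and both Erg peaks are shown because RUNX1 was found there in Phase 1 only. The last pair are neighbours that differ in stage and in the Cbfb guide comparison. Capitals mark a match on either strand to a RUNX string (TGTGGTT or TGCGGTT), an ETS string (CCGGAAG or CAGGAAG), an RBPJ string (GTGGGAA) or a GATA string (AGATAA or TGATAA). The intervals are chr9:32706187-32706386, chr9:32516026-32516225, chr16:95434607-95434806, chr16:95263074-95263273, chr6:134186418-134186617, chr6:134364743-134364942 and chr6:134366773-134366972, in the order printed.
Ets1 +10.3 kb: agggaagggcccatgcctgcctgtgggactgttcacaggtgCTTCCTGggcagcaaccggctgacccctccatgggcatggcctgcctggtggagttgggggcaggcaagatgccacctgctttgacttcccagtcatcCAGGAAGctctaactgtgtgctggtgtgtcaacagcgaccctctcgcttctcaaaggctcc
Fli1 +26.7 kb: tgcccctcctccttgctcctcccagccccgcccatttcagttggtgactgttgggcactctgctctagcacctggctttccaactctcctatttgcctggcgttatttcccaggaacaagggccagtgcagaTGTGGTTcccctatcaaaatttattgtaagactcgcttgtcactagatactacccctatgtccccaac
Erg +152 kb: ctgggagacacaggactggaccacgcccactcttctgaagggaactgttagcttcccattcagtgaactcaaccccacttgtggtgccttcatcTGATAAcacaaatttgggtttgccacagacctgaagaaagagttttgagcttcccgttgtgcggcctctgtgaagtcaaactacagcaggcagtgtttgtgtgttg
Erg +323 kb: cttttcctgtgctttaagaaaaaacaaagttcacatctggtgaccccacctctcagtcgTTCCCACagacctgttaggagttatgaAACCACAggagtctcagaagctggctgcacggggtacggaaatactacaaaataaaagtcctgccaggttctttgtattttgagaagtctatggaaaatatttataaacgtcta
Etv6 +151 kb: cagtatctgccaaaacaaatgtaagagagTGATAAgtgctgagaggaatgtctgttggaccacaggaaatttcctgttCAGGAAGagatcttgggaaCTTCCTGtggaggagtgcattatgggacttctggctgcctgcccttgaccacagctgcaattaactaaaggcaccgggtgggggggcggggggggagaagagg
Etv6 +329 kb: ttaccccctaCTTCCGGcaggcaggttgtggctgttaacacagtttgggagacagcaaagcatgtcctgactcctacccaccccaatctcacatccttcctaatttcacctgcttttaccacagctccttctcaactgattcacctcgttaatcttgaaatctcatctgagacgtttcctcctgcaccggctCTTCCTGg
Etv6 +331 kb: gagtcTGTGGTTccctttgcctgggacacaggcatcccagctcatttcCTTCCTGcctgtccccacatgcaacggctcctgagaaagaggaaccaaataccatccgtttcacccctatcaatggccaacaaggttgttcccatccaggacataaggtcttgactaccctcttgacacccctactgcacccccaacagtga

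The Ets1 and the 3 Etv6 sequences hold ETS strings, the Fli1, Erg +323 kb and Etv6 +331 kb sequences hold a RUNX string, and the Erg +323 kb sequence also holds an RBPJ string. The rule for printing asked for a RUNX, ETS or RBPJ string, so these matches follow from the choice and say nothing particular about ETS genes. The shares over all window peaks are given further on. The Erg +152 kb sequence holds none of these strings, only a GATA string, and was added after its values were seen. A match is a description of letters and not a bound site, and the absence of these letters says nothing about the factor.

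The windows were occupied by all 4 factors in both stages, at densities common among genes. In LP cells the 3 loci held 50 RUNX1, 44 CTCF, 41 Med12 and 60 p300 peaks. In Phase 1 cells they held 56, 42, 55 and 74. RUNX1 stood at 3.58 peaks per 100 kb in LP and 4.01 in Phase 1, against medians of 2.24 and 2.65 over the windows of all 21755 protein-coding genes. p300 stood at 4.29 and 5.30 per 100 kb, against medians of 2.49 and 3.40. CTCF lay slightly under its median, at 3.15 against 3.37 in LP and 3.01 against 3.33 in Phase 1. Among scores of 30 and over, CTCF stood at 1.86 in LP and 2.0 in Phase 1. The medians above use all scores, and none was computed at that score. Window CTCF peaks had median scores of 37.8 in LP and 40.5 in Phase 1, against 65.7 and 69.1 in the whole lists. For the 4 members, between 16.6% and 46.2% of protein-coding windows held RUNX1, Med12 or p300 peaks at least as densely as a member's window, so many other genes were as densely occupied. Most RUNX1, Med12 and p300 peaks lay in introns per the deposited annotation. The share was highest for Phase 1 RUNX1, with 38 of 56 peaks (67.9%), against 36.8% of that whole list. Of these 56, 3 were promoter peaks, against 24.1% of the list. CTCF was intronic at 47.7% of LP peaks and 50.0% of Phase 1 peaks, against 43.4% and 43.9%. The windows were built on gene bodies of 121 to 234 kb, and how far this alone sets the intron share was not tested.

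Peaks that overlapped across lists were joined into 133 sites. RUNX1, Med12 and p300 were found together in both stages at 30 of these, and in Phase 1 only at 7, of which 4 lay in the Erg window, 3 in the Etv6 window and 0 at Ets1-Fli1. They were found together in LP only at 4, of which 3 lay at Ets1-Fli1 and 1 in the Erg window. By the RUNX1, CTCF, Med12 and p300 lists of cells without guides, CTCF stood alone at 31 sites and p300 alone at 27. The p300 site at Fli1 +2.54 kb also held an sgCbfb Med12 peak (22.5). Another 34 sites held other combinations. Over the 100129 sites of the whole lists, 21.3% held RUNX1, Med12 and p300 in both stages, 6.11% in Phase 1 only and 1.75% in LP only. The window shares were 22.6% (16.3 to 30.4%), 5.26% (2.57 to 10.5%) and 3.01% (1.18 to 7.48%), and each interval contained the share of the whole lists. CTCF alone made up 23.3% of window sites (16.9 to 31.2%), against 37.1%, and p300 alone 20.3% (14.3 to 27.9%), against 10.0%. The counts per locus are too few to set the loci apart and were not tested against each other.

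**Figure D1:**
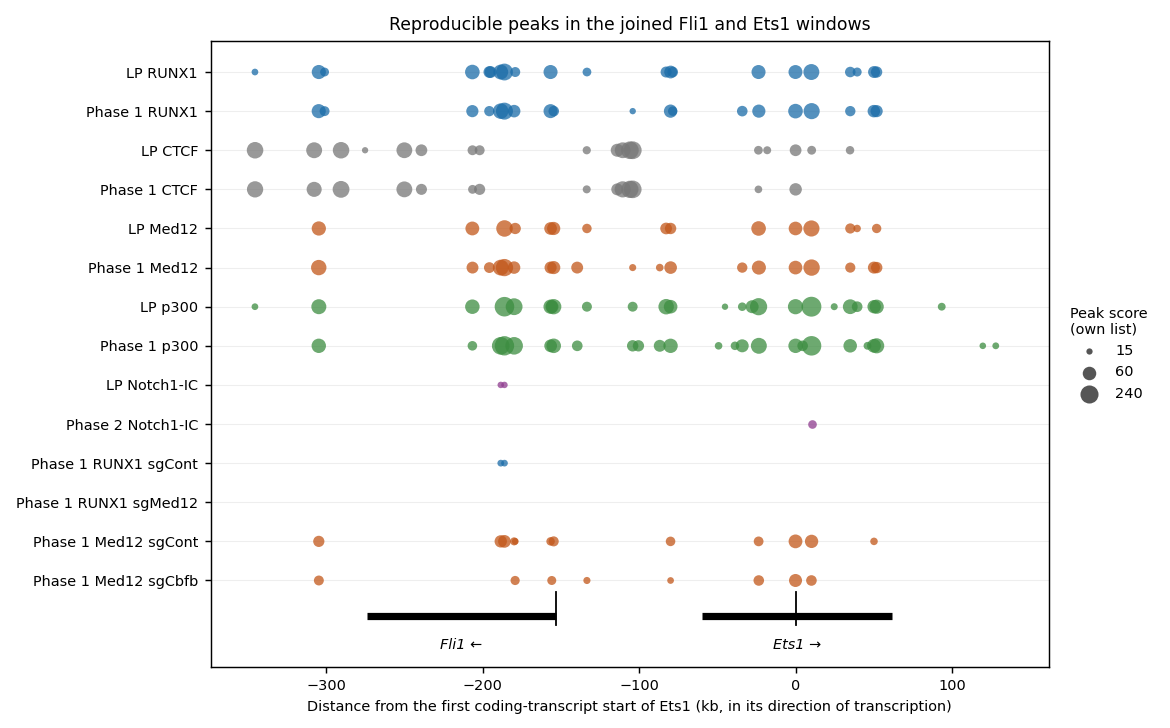
Peaks in the joined Fli1 and Ets1 windows by list, plotted by distance in kb from the first coding-transcript start of Ets1, with point area growing with the log of the peak score in its own list. Black bars are gene bodies and vertical lines their first coding starts; the 2 LP Notch1-IC peaks lie in Fli1 and the Phase 2 peak lies at Ets1 +10.3 kb.

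At the gene starts Med12 and p300 were found in LP cells already, as was RUNX1 except at Fli1. The Ets1 start held peaks of RUNX1, CTCF, Med12 and p300 in both stages. Its RUNX1 peaks scored 67.6 in the LP list and 81.3 in the Phase 1 list, with centres 69 bp and 44 bp from a coding start. Within 1 kb of the first Erg start, inside the gene, all 4 factors also had peaks in both stages, none of which reached the start itself. RUNX1 there scored 33.6 in LP and 35.5 in Phase 1, with centres 943 bp and 868 bp from the start. At a coding start of Fli1 that lies inside the gene body, Med12 (55.6 in LP, 54.1 in Phase 1) and p300 (98.8 and 79.5) were found in both stages, whereas RUNX1 was found in Phase 1 only, at a score of 30.0. No CTCF peak lay within 1 kb of a Fli1 start or of the first Etv6 start. At the Etv6 start the RUNX1 peaks were shared (74.2 in LP, 97.6 in Phase 1), but the Med12 centre lay 617 bp from the start in LP and 46 bp from it in Phase 1. The p300 centres lay 593 bp and 48 bp away. These Med12 and p300 peaks did not overlap between stages and were therefore counted as stage-specific, although both lie at the same promoter.

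Around Erg, an intronic cluster between +137 and +181 kb carried the highest RUNX1 scores of both stages outside the upstream flank. At +181 kb the LP RUNX1 peak scored 143.8 and ranked 3649 of 31995, and the Phase 1 peak scored 138.7. The LP p300 peak there scored 637.0 and ranked 169 of 36182. An LP Notch1-IC peak and a RUNX1 peak of sgCont cells lay on the same site. At +154 kb RUNX1 was again found in both stages, at 123.5 in LP and 134.4 in Phase 1. The site at +152 kb, chr16:95434542-95434870 in the Phase 1 RUNX1 list, stood out beside it. RUNX1 (154.7), Med12 (171.9) and p300 (235.0) were all present there in Phase 1, and no LP list had a peak there.

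Another Erg site was shared by overlap yet sat at very different ranks. At 11.1 kb upstream, RUNX1 scored 161.3 in Phase 1, the highest of the Erg window, and ranked 3631 of 38399. Its LP peak scored 18.7 and ranked 28846 of 31995, and LP Med12 there scored 16.4, near the lowest score of any list, 15. From the start to +137 kb no further RUNX1 peak was listed in LP, whereas in Phase 1 RUNX1, Med12 and p300 were found together at +27.9 and +67.2 kb. These peaks were low, with RUNX1 at 26.8 and 17.5. The remaining Erg site with all 3 factors in Phase 1 only lay at +323 kb, beyond the gene, in an intron shared by Gm31641 and Kcnj15, with RUNX1 at 37.5. The 1 LP-specific RUNX1 peak of the Erg window, 72.4 kb upstream, scored 19.2 and lay on the second-ranked CTCF site of the window, at 224.8 in LP and 209.6 in Phase 1.

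**Figure D2:**
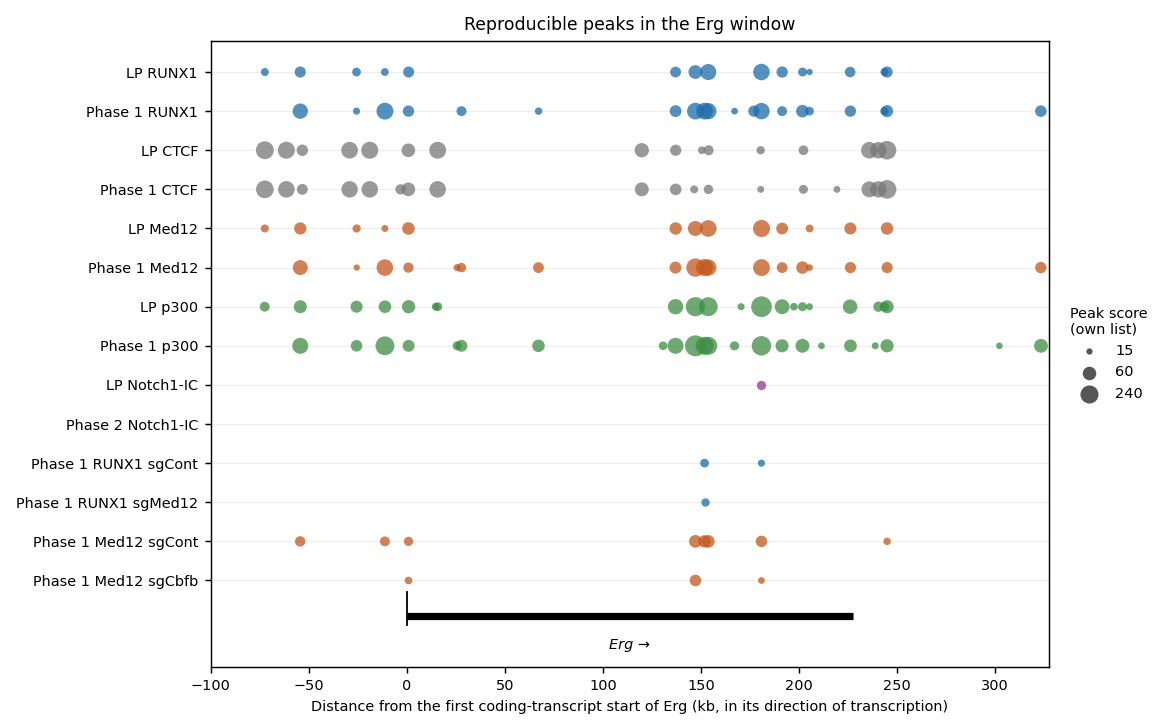
Peaks in the Erg window by list, plotted by distance in kb from the first coding-transcript start, with point area growing with the log of the peak score in its own list. RUNX1, Med12 and p300 have peaks at +152 kb in the Phase 1 lists and not in the LP lists. The LP points at +154 kb lie too near to show this by eye, and the CTCF rows of the stages look alike.

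Etv6 held the highest-ranked RUNX1, Med12 and p300 peaks of the 4 genes in the Phase 1 lists. The intronic site at +151 kb, chr6:134186353-134186681 in the Phase 1 RUNX1 list, held a RUNX1 peak of 410.7 that ranked 207 of 38399 in Phase 1. In LP it scored 137.0 and ranked 4022 of 31995. The Phase 1 p300 peak there scored 1099.1 and ranked 29 of 49116, and the Phase 1 Med12 peak scored 408.9 and ranked 76 of 39132. In the LP lists, p300 ranked 727 of 36182 and Med12 ranked 4082 of 30020. The site was occupied in both stages, and it ranked higher in the Phase 1 list of each of the 3 factors. Beside it at +154 kb, RUNX1 ranked 8500 of 31995 in LP (score 86.9) and 3643 of 38399 in Phase 1 (161.1).

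A further pair of sites lay beyond the 3′ end of Etv6, in an intron of 4933406J09Rik. At +331 kb RUNX1 was shared by the rule of 1 bp, ranking 6959 of 31995 in LP and 987 of 38399 in Phase 1 (score 270.9). The LP peak, chr6:134366894-134367234, and the Phase 1 peak, chr6:134366708-134367036, overlapped by less than 50% of the shorter peak. Under that stricter setting each would count as stage-specific. At +329 kb, chr6:134364678-134365006, RUNX1 (129.4), Med12 (153.3) and p300 (330.3) were found in Phase 1 only. Lower Phase 1-only sites with all 3 factors lay at +167 kb, with RUNX1 at 30.0, and at +297 kb, with RUNX1 at 25.5. At +256 kb RUNX1 was shared but ranked 27211 of 31995 in LP (21.1) and 6477 of 38399 in Phase 1 (116.1). The highest LP-specific RUNX1 peak of the window, at +22.9 kb, scored 21.3. These sites are assigned to Etv6 by the window alone, and which gene they act on was not tested.

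**Figure D3:**
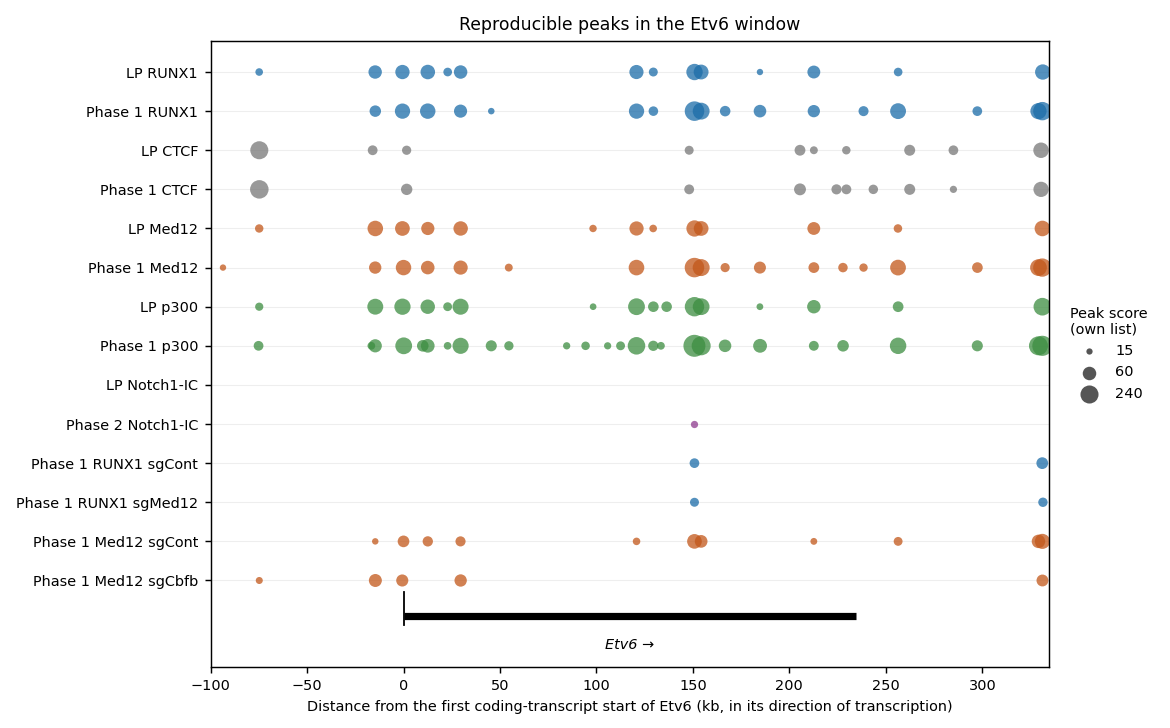
Peaks in the Etv6 window by list, plotted by distance in kb from the first coding-transcript start, with point area growing with the log of the peak score in its own list. The largest point of each of the Phase 1 p300 (1099.1), RUNX1 (410.7) and Med12 (408.9) rows is at +151 kb, and the Phase 1 sites at +329 and +331 kb lie beyond the gene body.

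At Ets1-Fli1 the highest-scored RUNX1 sites were common to both stages. The Fli1 site at +32.9 kb scored 159.7 for RUNX1 in LP and 167.6 in Phase 1, and p300 scored 415.4 and 385.5. It lies inside Fli1 and also within a non-coding exon of Gm38346. At +35.3 kb RUNX1 was shared, at 87.1 in LP and 105.0 in Phase 1, but Med12 (114.9) and p300 (208.7) were found there in Phase 1 only. The Fli1 peak printed above, at +26.7 kb, was the highest Phase 1-specific RUNX1 peak of the locus, at 47.3. An LP p300 peak of 158.9 already lay on that site. Within Ets1, the intronic site at about +10 kb scored 119.8 for RUNX1 in LP and 126.9 in Phase 1, with p300 at 471.8 and 409.6. Its LP RUNX1 peak, chr9:32705940-32706280, and Phase 1 RUNX1 peak, chr9:32706122-32706450, overlapped by less than 50% of the shorter peak. They count as shared by the rule of 1 bp and would not under that stricter setting.

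LP-specific RUNX1 peaks numbered 6 of 21 at Ets1-Fli1 (28.6%, interval 13.8 to 50.0%), 1 of 15 around Erg and 2 of 14 around Etv6. The share of the whole LP list, 16.8%, lies inside the Ets1-Fli1 interval. The highest, at Fli1 +41.8 kb, scored 40.3 and overlapped no peak of another list. At 82.8 kb upstream of the Ets1 coding start, in the interval between the genes, RUNX1 (33.0), Med12 (38.7) and p300 (104.0) were found in LP only. The LP-specific RUNX1 peak at Fli1 +26.0 kb (26.9) lay beside the Phase 1-specific peak at +26.7 kb, and LP and Phase 1 Med12 peaks lay at the same 2 positions.

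For RUNX1, CTCF and Med12, the share of stage-specific peaks over all 4 genes could not be set apart from that of the whole lists. RUNX1 was LP-specific at 9 of 50 LP peaks, 18.0% (interval 9.77 to 30.8%), against 16.8% of the whole list. It was Phase 1-specific at 15 of 56 peaks, 26.8% (17 to 39.6%), against 30.7%. Med12 was LP-specific at 9 of 41 peaks (22%, against 19.5%) and Phase 1-specific at 23 of 55 (41.8%, against 38.2%). CTCF was LP-specific at 7 of 44 peaks (15.9%, against 9.55%) and Phase 1-specific at 5 of 42 (11.9%, against 8.35%). In each of these cases the interval of the windows contained the share of the whole list. Without promoter peaks, which are fewer in the windows than in the RUNX1 and Med12 lists, these intervals still did. Phase 1-specific RUNX1 was then 26.4% (16.4 to 39.6%), against 38.5% of the list. Phase 1-specific Med12 was 42.3% (29.9 to 55.8%), against 47.4%. CTCF peaks found in 1 stage had scores from 15.1 to 26.0 in LP and from 16.3 to 28.6 in Phase 1, whereas the highest shared CTCF peak, at Erg +245 kb, scored 289.8 and 295.6.

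For p300 the LP share lay above that of its list, although not under every setting. LP-specific p300 peaks were 21 of 60, 35.0% (24.2 to 47.6%), against 20.7% of the whole list. Phase 1-specific p300 peaks were 35 of 74, 47.3% (36.3 to 58.5%), against 41.6%. With lists of equal length this was 16 of 53, 30.2% (19.5 to 43.5%), against 30.9%. Without promoter peaks the LP share was 35.1% (24.0 to 48.1%) against 25.6% of the list. Among scores of 30 and over it was 22.5% (12.3 to 37.5%) against 18.9%, and with lists of equal length 38.3% (27.1 to 51.0%) against 30.9%. In these 3 settings the interval contained the share of the list. The LP-specific p300 peaks had a median score of 22, beside 78.4 for the shared ones, and 9 of the 21 lay on an LP RUNX1 peak (42.9%, against 56.8% of the list). Of the shared p300 peaks, 35 of 39 did (89.7%, against 86.5%). In Phase 1, 10 of 35 specific p300 peaks lay on RUNX1 (28.6%, against 8174 of 20425 in the list), as did 38 of 39 shared ones (97.4%, against 89.0%). The whole lists thus showed the same contrast between specific and shared p300 peaks.

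**Figure D4:**
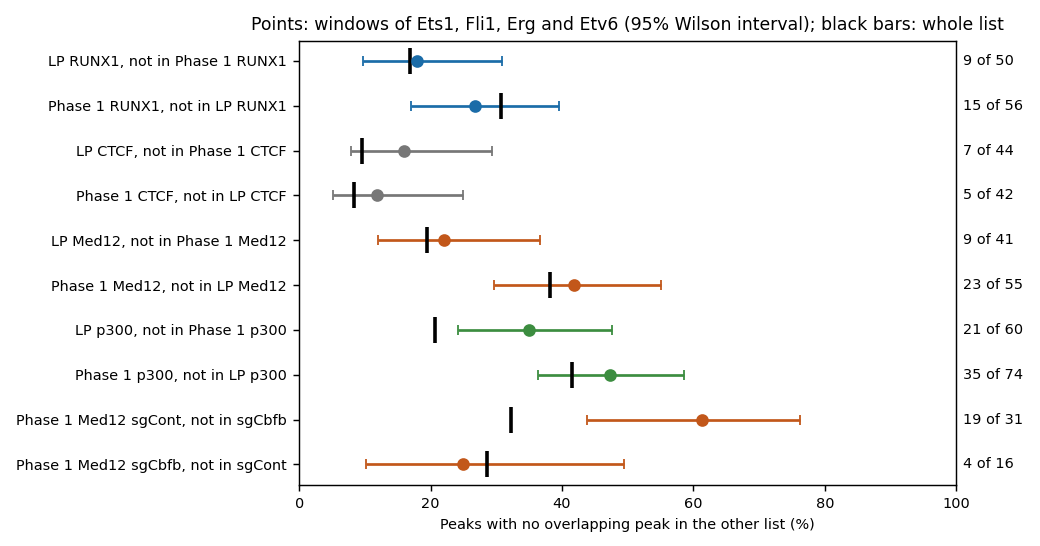
Share of peaks in the windows (%, points with 95% Wilson intervals, counts at the right) that had no overlapping peak in the compared list, with the same share over the whole list as a black bar. The black bar lies outside the interval for LP p300 and for the Med12 peaks of sgCont cells, and inside it in the other 8 rows.

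Most RUNX1 peaks around the 4 genes were co-occupied. In LP cells Med12 lay on 39 of 50 RUNX1 peaks, 78.0% (64.8 to 87.2%), and p300 on 44, 88.0% (76.2 to 94.4%). In Phase 1 Med12 lay on 48 of 56 peaks and p300, counted separately, also on 48, each 85.7% (74.3 to 92.6%). The whole lists gave 84.7% and 90.8% in LP and 86.0% and 87.8% in Phase 1. CTCF lay on 14 of 50 LP RUNX1 peaks (28.0%, against 23.2%) and on 9 of 56 in Phase 1 (16.1%, against 15.7%). Among scores of 30 and over the LP value was 4 of 34, 11.8% (4.67 to 26.6%), against 19.2%. Among stage-specific RUNX1 peaks, CTCF lay on 4 of 9 in LP, 44.4% (18.9 to 73.3%) against 36.8% of the list, and on 1 of 15 in Phase 1, 6.67% (1.19 to 29.8%) against 6.96%. All intervals contained the share of the whole list.

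Notch1-IC peaks were few, with 3 in LP, 0 in Phase 1 and 2 in Phase 2, from short lists of 1585, 152 and 352. The median over all protein-coding windows was 0 in each list. In LP, 5.67% of those windows were at least as dense as that of Fli1, and 18.6% as that of Erg. In Phase 2 this was 4.34% for Ets1 and 4.57% for Etv6. Each value rests on 1 or 2 peaks, and the other members held 0 in these lists. The LP peaks lay at Erg +181 kb (score 23.9) and at Fli1 +32.9 and +35.3 kb (15.4 each), all on RUNX1 peaks present in both stages. The Phase 2 peaks lay at Ets1 +10.3 kb (21.2, ranked 175 of 352) and Etv6 +151 kb (17.1, ranked 260). LP cells received no ligand, yet their list is the longest of the 3 used here. The Notch1-IC lists of cells with ligand hold fewer peaks than the study describes, for a reason not given in the files, so the counts above, including the 0, hold for these shorter copies only. None of the 5 peaks held the RBPJ string in its central 200 bp, whereas 4.42% of the LP list, 36.2% of the Phase 1 list and 26.2% of the Phase 2 list did. Both Phase 2 peaks held an ETS string, against 24.2% of that list.

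In Phase 1 cells with Cbfb guides, fewer Med12 peaks were listed around these genes than with the control guide. The sgCont list held 31 Med12 peaks in the windows and the sgCbfb list held 16, from whole lists of 19053 and 18099. Of the 31, 19 had no overlapping sgCbfb peak, 61.3% (43.8 to 76.3%), against 32.2% of the whole list. Promoter peaks made up 42.3% of the whole sgCont list but only 3 of the 31. Outside promoters the share was 17 of 28, 60.7% (42.4 to 76.4%), against 50.2% of the list, and the interval then contained the share of the list. In the other direction, 4 of the 16 sgCbfb peaks were missing from sgCont, 25.0% (10.2 to 49.5%), against 28.6%. Outside promoters this was 3 of 14, 21.4%, against 45.7%, inside an interval of 7.57 to 47.6%. Among scores of 30 and over, 4 of 8 sgCbfb peaks were also in sgCont, 50.0% (21.5 to 78.5%). The share of the list was then 79.0%, outside that interval. In the sgCont direction it was 4 of 14, 28.6% (11.7 to 54.6%), against 75.6%, also outside. Both list shares at this score include promoter peaks, which made up 44.8% of the whole sgCbfb list and 2 of its 16 window peaks. They were not computed outside promoters.

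By nearest gene, 1 of 5 sgCont peaks was missing for Ets1, 5 of 7 for Fli1, 5 of 8 for Erg and 8 of 11 for Etv6, beside the 32.2% of the whole list and 50.2% outside promoters. These counts are too small to set a gene apart. The Ets1 peaks in both lists included the start (64.7 in sgCont, 53.0 in sgCbfb) and the intronic +10 kb site (57.2 and 30.5). Peaks of high score were among those missing. At Etv6 +151 kb the sgCont Med12 peak scored 82.3 and ranked 2447 of 19053, and the nearest sgCbfb centre was 121 kb away. Etv6 +329 kb (59.3), Etv6 +154 kb (49.0), Erg +154 kb (49.0), Erg +152 kb (45.3), Fli1 +32.9 kb (49.3) and Fli1 +35.3 kb (44.7) were missing as well. The missing peaks had a median score of 28.7, beside 31.2 for those in both lists. Of the 19, 18 overlapped a Phase 1 RUNX1 peak of cells without guides, as did 11 of the 12 others, close to the 93.6% and 94.8% of the whole list.

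Med12 peaks at Erg +147 kb (49.9 in sgCont, 37.8 in sgCbfb), Erg +181 kb (36.4 and 15.9) and Etv6 +331 kb (93.3 and 40.2) were in both lists. At the Etv6 start the sgCbfb peak (42.3) lay 696 bp from the start and the sgCont peak (38.3) 49 bp from it, so the promoter had Med12 in both and counted as missing in each direction. The sgCbfb peak overlapped the LP Med12 peak there. All 12 sgCont peaks that were also in sgCbfb overlapped an LP Med12 peak, against 13 of the 19 missing ones. Over the whole lists these shares were 95.4% and 75.8%.

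**Figure D5:**
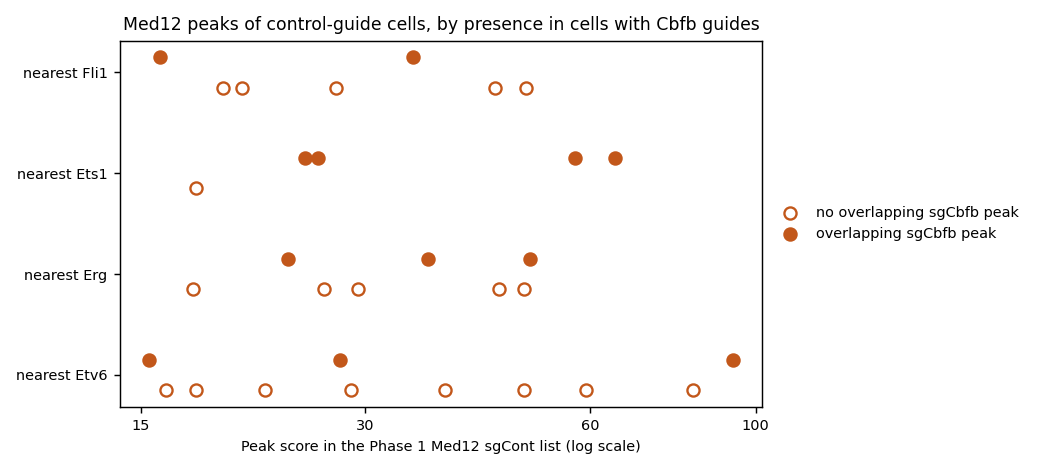
Scores of the 31 Med12 peaks of sgCont Phase 1 cells (log axis, score in that list) by the nearest gene, filled where an sgCbfb peak overlapped and open where none did. Open points span scores of 16.2 to 82.3 and filled points 15.4 to 93.3.

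RUNX1 lists of cells with guides were too short to describe these loci in depth. The LP sgCont and sgCTCF lists held 0 window peaks of 975 and 874. The Phase 1 sgCont list held 6 of 1550, at Etv6 +331 kb (39.1), Etv6 +151 kb (25.5), Erg +152 kb (21.5), Erg +181 kb (16.9), Fli1 +35.3 kb (16.0) and Fli1 +32.9 kb (15.9). All of them were RUNX1 sites of Phase 1 cells without guides. The sgMed12 list held 3 of 2094, of which Etv6 +151 kb (22.4) and Erg +152 kb (20.1) overlapped sgCont. Thus 4 of 6 sgCont peaks were missing from sgMed12, 66.7% (30.0 to 90.3%) against 29.0% of the whole list, and 1 of 3 sgMed12 peaks was missing from sgCont, 33.3% (6.15 to 79.2%) against 47.4%. That peak (24.1) lay 0.345 kb, between centres, from the sgCont peak at Etv6 +331 kb without overlapping it. It overlapped the Phase 1 RUNX1 peak of cells without guides by a few bases only. Most of it lay on the LP RUNX1 peak of that site, chr6:134366894-134367234. The sgMed12 peak begins at chr6:134367033, whereas the sgCont peak ends at 134366992 and the peak of cells without guides at 134367036.

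RUNX and ETS strings were about as frequent in these peaks as in the whole lists. The RUNX string was in 13 of 56 Phase 1 RUNX1 peaks, 23.2% (14.1 to 35.8%), against 25.4% of the list and 11.6% of windows of equal length 2 kb to each side. In LP it was in 9 of 50, 18.0%, against 21.2% and 12%. The ETS string was in 14 of 56 in Phase 1 (25.0%, against 23.0% of the list and 16.1% beside the peaks) and in 10 of 50 in LP (20.0%, against 24.9% and 10.0%). A PU.1 string (GAGGAAGT, which cannot match at the same bases and strand as the ETS string) was in 7 of 50 LP RUNX1 peaks (14%, interval 6.95 to 26.2%, against 9.02% and 1.00%). The CTCF consensus was in 7 of 44 LP CTCF peaks (15.9%, against 16.6%) and in 0 of 88 windows beside them. AP-1 strings (TGACTCA or TGAGTCA) were in 0 of 56 Phase 1 RUNX1 peaks, against 8.67% of the list and 6.25% beside the peaks. The upper bound of that interval, 6.42%, lies under the share of the list but not under the share beside the peaks. In Phase 1 Med12 peaks the string was in 1 of 55 (0.322 to 9.61%), against 11.1%. The interval contained the share of the list for LP RUNX1 (0 of 50, against 5.77%) and Phase 1 p300 (6 of 74, 8.11%, against 14.5%). Many pairs of string and list were examined. GATA strings were in 8 of 56 (14.3%, against 13%) and were more frequent beside the peaks, at 22.3%.

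The other 22 ETS genes, taken in windows made alike, placed the 4 genes within the range of their family. RUNX1 in LP ran from 0 to 8.85 peaks per 100 kb over these genes, with a median of 3.08, and was highest at Spdef. The 4 genes lay between 3.22 (Etv6) and 4.37 (Fli1) and ranked 7 to 14 of 26. In Phase 1 Erg stood at 4.68, Etv6 at 3.91, Fli1 at 3.74 and Ets1 at 3.73, against a median of 3.49 for the others, and ranked 8 to 14. Spi1, which encodes PU.1 of the same family, held 3.86 RUNX1 peaks per 100 kb in LP and 4.71 in Phase 1. For p300 in Phase 1, Ets1 (6.22) and Etv6 (6.21) ranked 8 and 9, Erg (5.15) ranked 13, Fli1 (3.74) ranked 17, and the highest was Elk3, at 9.86. Windows of small genes hold mostly flank and neighbours, so these densities describe neighbourhoods and not single genes.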

How the data were processed

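The members and lists were chosen with earlier results of these data known. Per the study's methods and the labels, the authors aligned reads to mm10 with Bowtie 1.1.1 (single reads per the labels, paired reads per the methods), called peaks with HOMER in factor mode, kept peaks reproducible between both replicates by IDR at a normalized score of at least 15, and annotated them with HOMER. The deposited score is in the authors' own unit, with its scale not stated in the file headers. Replicates were pooled in each list, and no test was possible.

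Gene bodies came from GENCODE vM21, and sequences from RefSeq's GRCm38.p6, the same build. Peaks were shared when they overlapped by at least 1 bp. Named peaks, per locus, were those within 1 kb of a start, the 3 highest RUNX1 peaks and stage-specific RUNX1 peaks per locus and stage, the 2 highest CTCF peaks, all Notch1-IC and guide RUNX1 peaks, and the 3 highest unshared Med12 guide peaks. Other peaks named were chosen after their values were seen. Strings were sought in the central 200 bp. Overlap and interval code was tested on simulated peaks. Python 3.11.15, pandas 2.3.3 and pysam 0.24.0 were used.

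Alternatives were windows of 50 and 200 kb, scores of at least 30, overlap of 50% of the shorter peak, no promoter peaks, lists of equal length, and strings within 100 bp.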

Additional observations from a re-analysis of the deposited data

How the results depend on the processing

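Over 179 values recomputed under these alternatives, 167 stayed within the interval of the reported share, or within 1.5 times the reported count or density, and 12 did not. All 36 values in windows of 200 kb, all 36 without promoter peaks, all 18 at an overlap of 50% and all 6 with strings within 100 bp stayed. The windows held 0 to 3 promoter peaks per list, so removing these could move a window value only little. Shares of the whole lists moved instead, from 20.7 to 25.6% for LP-specific p300. For sgCont Med12 peaks also in sgCbfb the list share moved from 67.8 to 48.8%. The 50.2% missing outside promoters, given earlier, had promoter peaks taken out of the sgCont list only. The 0 of Phase 1 Notch1-IC could not change where peaks were removed, and shares of few peaks have wide intervals. At scores of at least 30, the density of all lists was 22.3 per 100 kb, against 34.6, and Notch1-IC held 0 peaks in LP and 0 in Phase 2. CTCF stood at 1.86 per 100 kb in LP, against 3.15, and 2.0 in Phase 1, against 3.01. The shares that moved at this score are set against those of the whole lists at the same score. LP-specific CTCF was 0% (0 of 26, against 6.66%) and LP-specific p300 was 22.5% (against 18.9%). LP RUNX1 with CTCF was 11.8% (4 of 34, against 19.2%). Of sgCbfb Med12 peaks, 50.0% (4 of 8, interval 21.5 to 78.5%) were also in sgCont, against 79.0%, which lies outside that interval. That list share includes promoter peaks. Of sgCont RUNX1 peaks, 0% (0 of 1) were also in sgMed12, against 44.9%. At equal list length, Phase 1-specific p300 was 30.2% (16 of 53), against 30.9% of the whole list. In windows of 50 kb, sgMed12 RUNX1 also in sgCont was 100% (2 of 2), against 52.6% of the whole list. The higher score leaves fewer peaks by construction. The cause of the other differences was not tested. At a score of at least 30 no sgMed12 RUNX1 peak was left in the windows. No paired analysis was possible because each list combines both replicates of a group, and for the same reason no replicate could be left out. Depth per sample was not given in the files, so a missing peak may be one not detected at the depth of its list.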

Other observations

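Besides the sites described, p300 alone, by the lists of cells without guides, marked 27 of the 133 sites. Phase 1 p300 peaks without RUNX1 were 26 of 74 in the windows (35.1%, against 31.4% of the list), with a median score of 20.8 beside 70.8 for those with RUNX1. In LP they were 16 of 60 (26.7%, against 19.7%), with medians of 21.4 and 76.0. Of the 49 sites with CTCF, 31 held no RUNX1, Med12 or p300 peak and 18 did. Some Ets1-Fli1 and Etv6 window peaks lay in other genes: the CTCF peak at 155 kb and the shared RUNX1 peak at 152 kb downstream of the Fli1 start were in introns of Kcnj1, with RUNX1 at 71.1 in LP and 70.5 in Phase 1, and Med12 there was found in sgCont (34.7) and sgCbfb (26.7).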
